A study of Mus musculus with 6 samples.

Results

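RNA was sequenced from neuron-enriched cells of mouse cerebral cortex, and the 6 libraries were divided into a neuron-rich and a neuron-poor side of 3 each, which together make up all 6 libraries of the series. The neuron-rich side holds the 3 libraries with the highest summed level of Snap25, Syt1 and Meg3: the library labelled control 2 and those labelled cKO 2 and cKO 3. The neuron-poor side holds those labelled control 1, control 3 and cKO 1. The libraries were thus chosen by measured neuronal transcript levels, so every difference between the sides is given as a description, with no test, and the marker genes are no evidence for the division. The table has 24419 gene symbols, of which 14796 reached a level of 1 or more in 3 or more libraries and were compared.

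All mice were male, carried Padi4flox/flox alleles and had a 60-minute middle cerebral artery occlusion (MCAO), a model of ischemic stroke, with cortex taken on day 4. The libraries labelled control carried the floxed alleles alone, and those labelled cKO also carried Slc17a7-cre and Slc32a1-cre, which drive recombination in glutamatergic and in GABAergic neurons. Cells were freed with pronase for 75 minutes and sorted as Thy1+/ACSA2-/CD31-/CD45-/O4-, a gate meant to keep neurons and to remove astrocytes, endothelium, leukocytes and the oligodendrocyte lineage. Ages were not given, and the labels do not say whether each library came from a separate animal, so the p-values below measure only how these samples vary, which may be technical variation.

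Padi4, the targeted gene, does not bear out the labels, but its reads are too few to contradict them. Counts per gene also do not tell the floxed part of Padi4 from the rest. It had 0 reads in control 1, control 2, control 3 and cKO 1, 3 reads in cKO 2 and 12 reads in cKO 3. Group names are therefore the labels only. The neuron-rich side has 1 library labelled control and 2 labelled cKO, and the neuron-poor side has 2 and 1. Label and side are thus partly mixed. Both libraries numbered 1 are neuron-poor and both numbered 2 neuron-rich, so number and side are partly mixed too.

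Neurons pass signals by releasing vesicles at a presynaptic terminal onto receptors of the postsynaptic density, and their electrical activity rests on voltage-gated channels. Glutamatergic neurons excite their targets, GABAergic interneurons inhibit them, and both have left the cell cycle for good. Glia, vascular cells and fibroblasts at the edge of an infarct can divide, and mature oligodendrocytes wrap axons in myelin. In bulk RNA from sorted cells, fewer cells of a type and less RNA per cell cannot be told apart.

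Values are the deposited CPM, which are depth-scaled read counts, after a further scaling per library, called levels here. Differences are the mean of log2(level + 1) over the neuron-rich libraries minus that over the neuron-poor libraries. Depth, recovered from the values, was between 10094145 and 24056755 reads. The 2 libraries numbered 2, both on the neuron-rich side, stand apart: control 2 had 15261 and cKO 2 had 14042 genes with a read, against 16818 to 17891 in the other 4. Of the genes compared, 672 were at 0 in control 2 and 1461 in cKO 2, against 12 to 113 in the other 4. On log2 levels across the compared genes, cKO 2 had a Pearson correlation of 0.792 to 0.841 with the other libraries, which correlated with each other at 0.848 to 0.971. Genes are not independent replicates, and these correlations are a description. Whether low recovery of transcripts in these libraries has a part in the differences below was not tested, and values without both of them are given beside many of the lists.

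Snap25, a protein of the vesicle fusion machinery, stood at 1017, 984 and 384 in control 1, control 3 and cKO 1, and at 1538, 1462 and 2619 in control 2, cKO 2 and cKO 3. Syt1, the calcium sensor for release, stood at 690, 654 and 322 on the neuron-poor side and at 758, 788 and 2033 on the neuron-rich side. Meg3, an imprinted long noncoding RNA abundant in neurons, stood at 1125, 2408 and 890 against 3082, 4325 and 1826. The first pair parts the sides without overlap, whereas Meg3 was lower in cKO 3 than in control 3. The 3-gene sum was 5377 in control 2, the lowest library inside the neuron-rich side, and 4045 in control 3, the highest outside it. The sum or the mean log2 level of a 26-gene pan-neuronal list, with or without the 3 markers, chose the same 3 libraries.

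**Figure D1:**
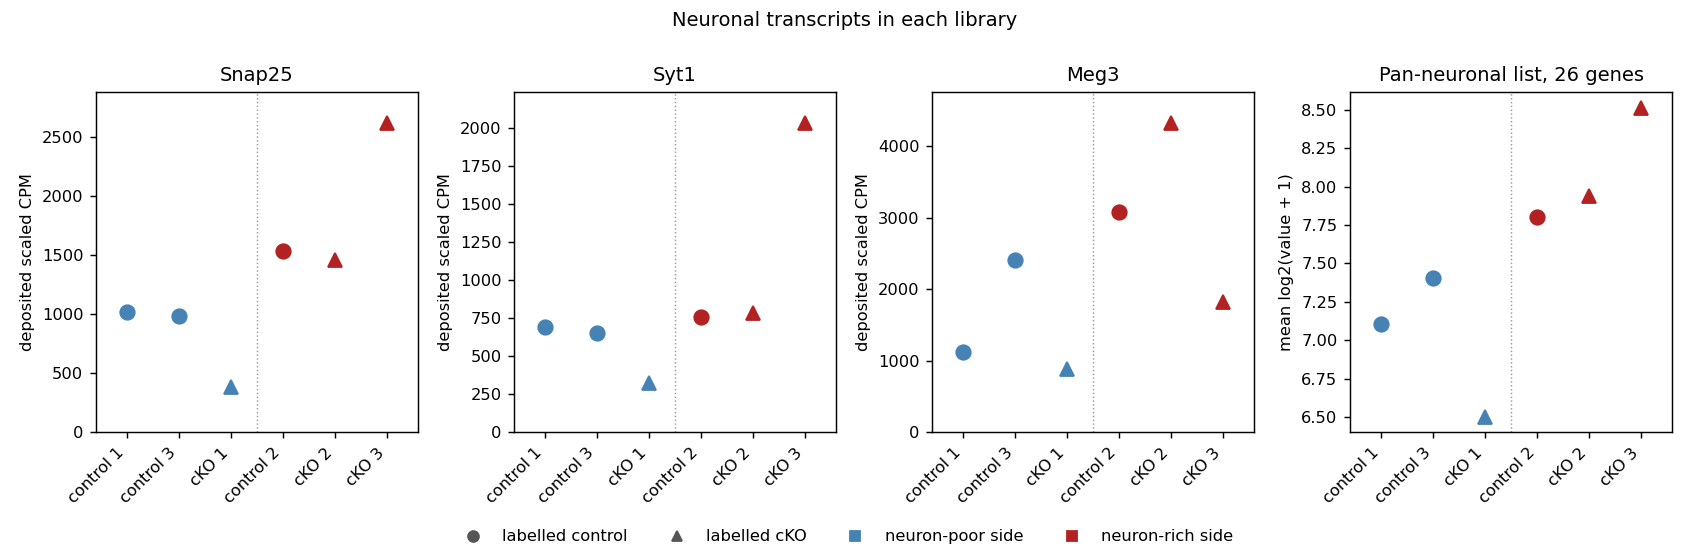
Levels of Snap25, Syt1 and Meg3 (vertical axes, deposited scaled CPM from 0) and the mean log2(value + 1) of 26 pan-neuronal genes (axis not from 0), with 1 point per library; circles are labelled control, triangles labelled cKO, blue is neuron-poor and red neuron-rich. The pan-neuronal mean ran from 6.50 to 7.40 on the neuron-poor side and from 7.80 to 8.51 on the neuron-rich side, and Meg3 overlapped.

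The name neuron-rich is relative. Per kilobase of exon, the summed level of 26 pan-neuronal genes divided by that of 29 oligodendrocyte genes was 0.0937, 0.125 and 0.0516 in control 1, control 3 and cKO 1, and 0.243, 0.278 and 0.638 in control 2, cKO 2 and cKO 3. Oligodendrocyte transcripts thus outweighed these neuronal transcripts per length in each of the 6 libraries, although the gate removed O4+ cells. Of the genes behind the gate, Thy1 stood at 107, 104 and 75.1 against 164, 186 and 375. Ugt8a, an enzyme of myelin galactolipid synthesis, stood at 971, 792 and 1532 against 433, 280 and 224. Gal3st1, also among the sort genes, overlapped at 43.7, 42.6 and 79.7 against 44.9, 16.4 and 32.3. Atp1b2, which encodes the ACSA2 antigen, overlapped at 209, 244 and 242 against 133, 412 and 273. These genes were used to sort the cells and are not evidence for the division. Ptprc, which encodes CD45, was at most 2.35 in any library, and Pecam1, which encodes CD31, at most 7.53.

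Genes counted as differing are those whose 3 neuron-rich libraries all lie on one side of all 3 neuron-poor libraries and whose difference is at least 1 on the log2 scale. Of the 14796 genes, 836 were higher (5.65%) and 877 lower (5.93%) on the neuron-rich side. Without the minimum difference, 1689 genes were higher without overlap (11.4%) and 1763 lower (11.9%). The median difference over all genes was -0.10, with 6606 genes positive and 8190 negative. Since the values chose the sides, nothing is read from these shares themselves. They are the background beside which the lists below are described. Leaving out 1 library moves this background too, since fewer libraries make non-overlap easier to reach. Higher and lower genes then numbered 898 and 1005 without control 1, 1154 and 1346 without control 2, and 1357 and 1539 without control 3. They numbered 733 and 943 without cKO 1, 1048 and 849 without cKO 2, and 1255 and 2113 without cKO 3. List counts with a library left out are to be read beside these. Without both libraries numbered 2, cKO 3 alone stands for the neuron-rich side, so for lists only medians are given there.

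**Figure D2:**
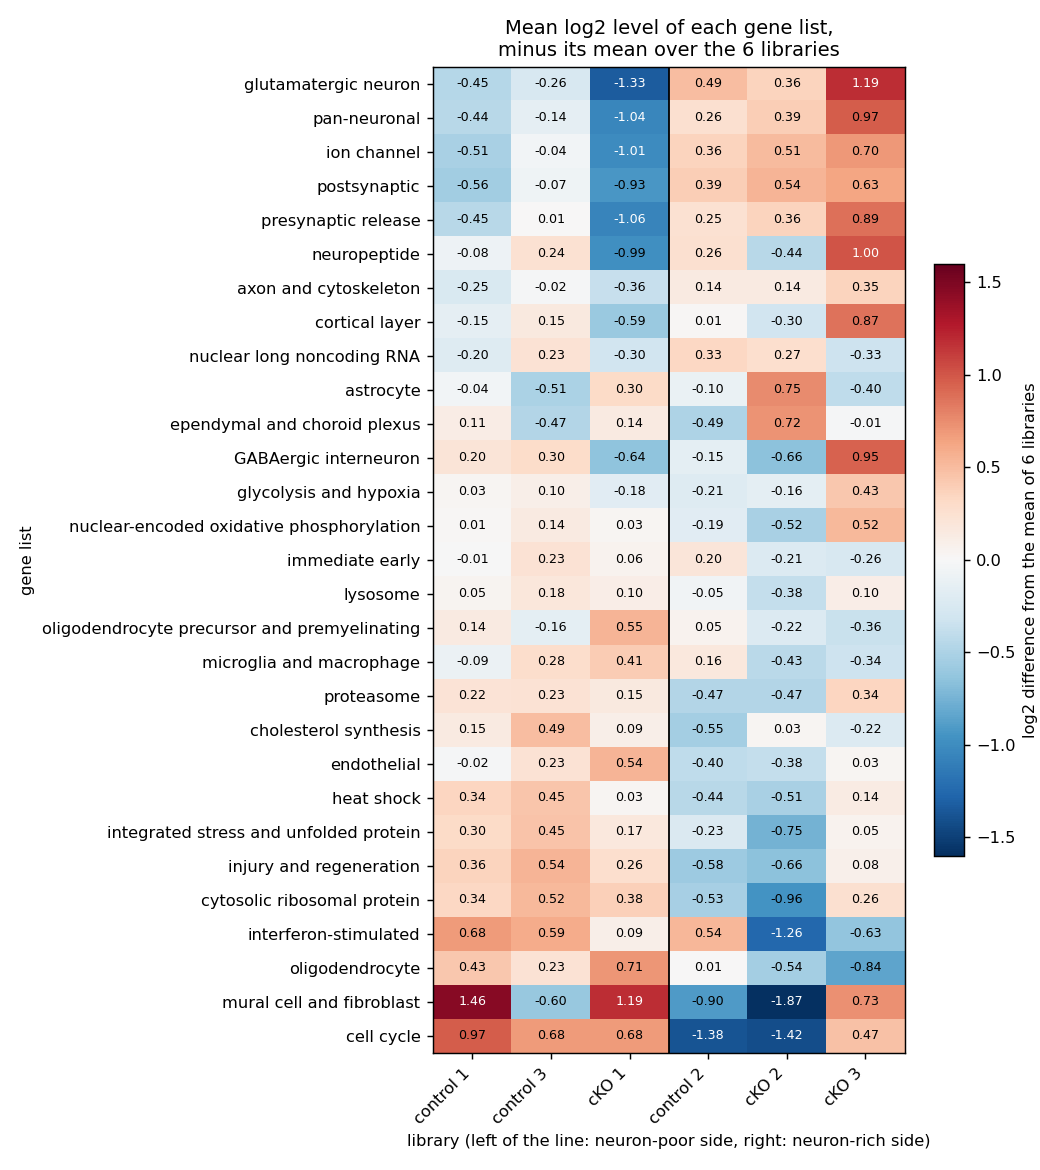
Mean log2(value + 1) of each gene list (rows) in each library (columns), minus the mean of the list over 6 libraries; red is above and blue below that mean, and the line parts the neuron-poor from the neuron-rich libraries. Glutamatergic, pan-neuronal, ion channel and postsynaptic lists part by side in every library, whereas cKO 3 departs from control 2 and cKO 2 for the cell cycle, mural and ribosomal lists.

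Synaptic and excitability genes were higher on the neuron-rich side as broad groups. The sides were formed on neuronal transcripts, with the synaptic genes Snap25 and Syt1 among them. This direction was thus largely set in advance for all 4 lists of this paragraph and is a description. The 3 markers were taken out of the pan-neuronal list only. Of the 23 pan-neuronal genes other than the 3 markers, 22 had a positive difference and 12 counted as higher, with a median of 1.19, but the sides were formed on levels of such genes and this is no finding. Of 45 postsynaptic genes, 44 were positive and 15 counted as higher (median 1.02), and of 39 presynaptic release genes 37 were positive and 15 counted as higher (median 1.05). Of 42 ion channel genes passing the filter, 39 were positive and 20 counted as higher (median 1.09). In these 4 lists 0 genes counted as lower. Leaving out 1 neuron-poor library moved the counts of genes counted as higher: without cKO 1 they were 9 for the presynaptic and 11 for the ion channel list, and without control 3 they were 25 for the postsynaptic and 27 for the presynaptic list.

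Grin1, the obligatory subunit of NMDA receptors (chr2:25291181-25319187, minus strand, mm10), stood at 75.7, 215 and 46.0 in control 1, control 3 and cKO 1. In control 2, cKO 2 and cKO 3 it stood at 428, 477 and 392, a difference of 2.23. The neuron-rich libraries are close together and the neuron-poor ones spread widely, with control 3 nearest to the gap. Camk2b, a kinase subunit of the postsynaptic density, stood at 130, 233 and 75.9 against 338, 565 and 578 (difference 1.85). Grin2a, another NMDA receptor subunit, stood at 49.9, 104 and 35.5 against 130, 278 and 156 (difference 1.63). Baiap2, a scaffold that shapes spine actin, stood at 48.8, 101 and 48.6 against 196, 250 and 164. In each of these genes control 3 was the highest and cKO 1 the lowest library of the neuron-poor side.

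On the presynaptic side, Cplx1, the complexin that clamps vesicle fusion, stood at 56.0, 56.9 and 26.4 against 131, 186 and 274, a difference of 2.08. Bsn, the active zone scaffold bassoon, stood at 271, 442 and 194 against 811, 853 and 858. Dnm1, the dynamin of vesicle retrieval, stood at 261, 383 and 174 against 657, 977 and 1147. Bsn was nearly level over the 3 neuron-rich libraries, whereas Cplx1 and Dnm1 were highest in cKO 3. Among channels, Kcnab2, a beta subunit of voltage-gated potassium channels, stood at 34.1, 62.8 and 25.5 against 151, 125 and 158. Kcnt1, a sodium-activated potassium channel, overlapped, since control 3 at 153 lay above cKO 3 at 113.

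The genes with the largest differences in this direction were not all synaptic. Kcnj4, an inward rectifier potassium channel, led at 7.84, 13.5 and 2.54 against 39.9, 39.0 and 67.7, a difference of 2.65. Otof, the calcium sensor otoferlin known from hair cell synapses, stood at 1.75, 9.11 and 2.93 against 36.3, 44.2 and 9.68, so cKO 3 barely cleared control 3. Sgpp2, a phosphatase of sphingosine 1-phosphate, followed at 6.27, 2.28 and 2.02 against 18.2, 33.7 and 16.6. Then came Vwc2l, the glycosylation enzyme Galnt9, the transcriptional regulator Prdm8, Rprml, the peptidase Ace, the BMP antagonist chordin (Chrd) and Fbxo41. Chst1, a sulfotransferase of keratan sulfate, stood at 36.7, 42.8 and 34.7 against 126, 251 and 162, with the neuron-poor libraries close together. The other leading genes, down to a difference of 2.09, were Dalir, Slc30a3, Kcnab3, Gfra4, Grin1, Ntng1, Klhl1, Sema4f, Islr2, Mei1, Matn1, Cdkl1, Sidt1 and Slc7a4.

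**Figure D3:**
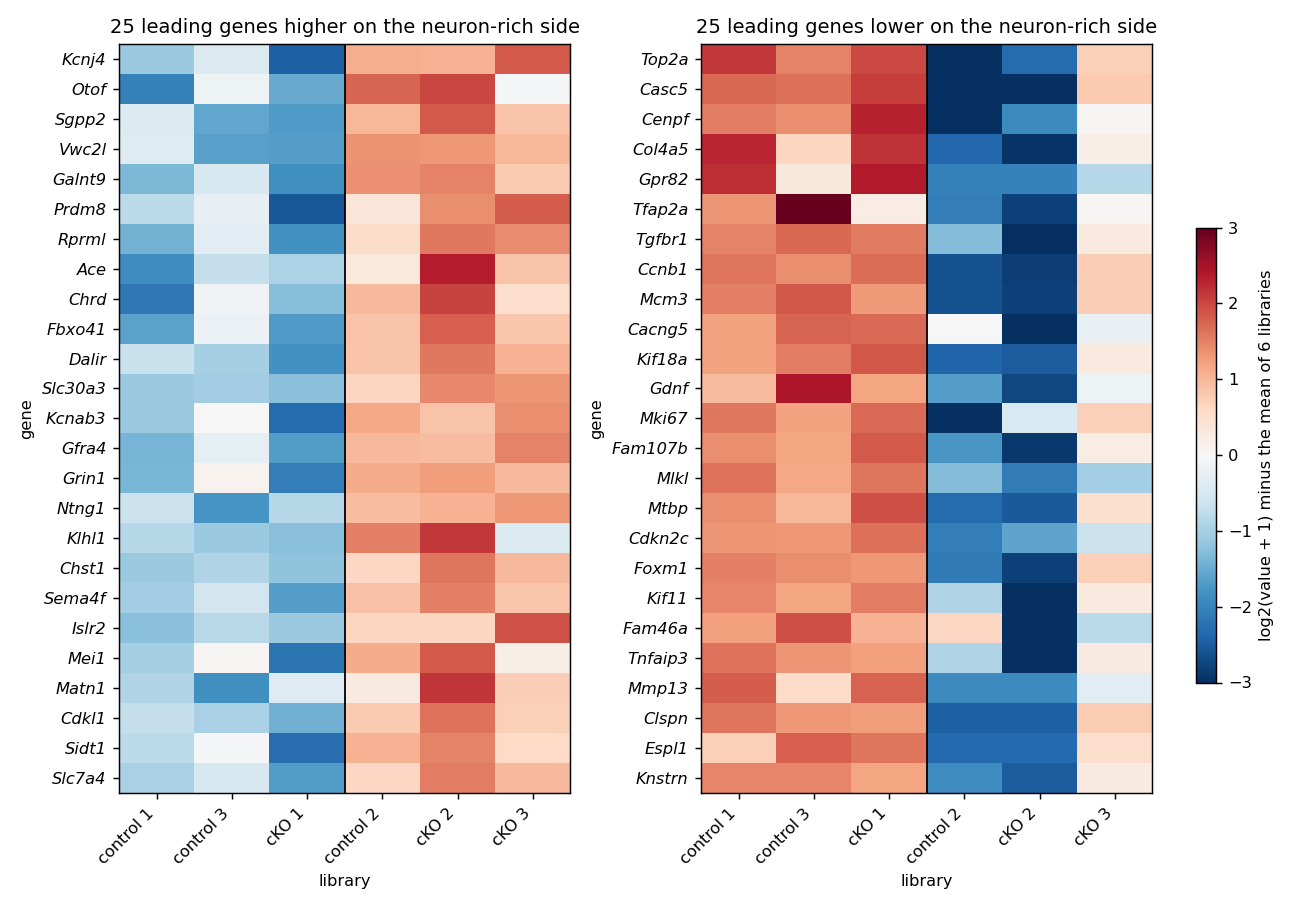
log2(value + 1) of the 25 leading genes in each direction (rows), minus the mean of the gene over 6 libraries, in the neuron-poor (left of the line) and neuron-rich libraries; the color scale stops at -3 and 3. Among genes higher on the neuron-rich side, Otof and Klhl1 are close to the mean in cKO 3, and genes lower on it are mostly deep blue in control 2 and cKO 2 and closer to the mean in cKO 3.

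The transmitter classes of neurons are given side by side. All 23 glutamatergic genes that passed the filter were positive, 15 counted as higher and the median was 1.28. Of 28 GABAergic interneuron genes passing the filter, 15 were positive and 13 negative, 3 counted as higher and 1 as lower, and the median was 0.29. Both lists hold genes of neurons, on whose transcripts the sides were formed, and the difference between these lists was not tested.

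Slc30a3, the transporter that loads zinc into glutamatergic vesicles, stood at 11.4, 12.1 and 10.4 against 41.6, 72.6 and 67.1, a difference of 2.28. Camk2a, the alpha subunit of the same kinase as Camk2b, stood at 227, 422 and 203 against 1031, 1169 and 893. Tbr1, a transcription factor of cortical projection neurons that was chosen after its values were seen, stood at 56.0, 58.9 and 17.1 against 120, 133 and 183. None of these glutamatergic genes overlapped. Slc17a7, the vesicular glutamate transporter at which one Cre driver sits, did overlap, at 116, 96.9 and 51.9 against 208, 87.9 and 470, with cKO 2 below 2 neuron-poor libraries.

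Gad1 and Gad2, the enzymes of GABA synthesis, were likewise chosen after their values were seen. Gad1 stood at 95.6, 137 and 28.5 against 26.6, 31.7 and 199, and Gad2 at 108, 147 and 19.3 against 64.8, 81.1 and 185. Their highest library was cKO 3, and control 2 and cKO 2 lay below control 1 and control 3 although the pan-neuronal list placed them above. Slc32a1, the vesicular GABA transporter and site of the other Cre driver, stood at 11.1, 2.83 and 5.52 against 9.71, 11.8 and 40.4. Htr3a, a serotonin receptor channel of interneurons, was at 0 in control 2 and cKO 2, at 13.5 in cKO 3 and at 6.48 to 8.61 on the neuron-poor side. Pvalb, the calcium buffer of fast-spiking interneurons, was low but parted, at 2.49, 4.39 and 2.16 against 14.3, 7.88 and 14.0, and so did Lamp5. The median of the GABAergic list, 0.29 over 6 libraries, was -0.09 without cKO 3 and -0.37 without cKO 1, and the glutamatergic median was 1.04 in each case. With cKO 3 as the sole neuron-rich library, without both libraries numbered 2, the medians were 0.93 and 1.91.

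**Figure D4:**
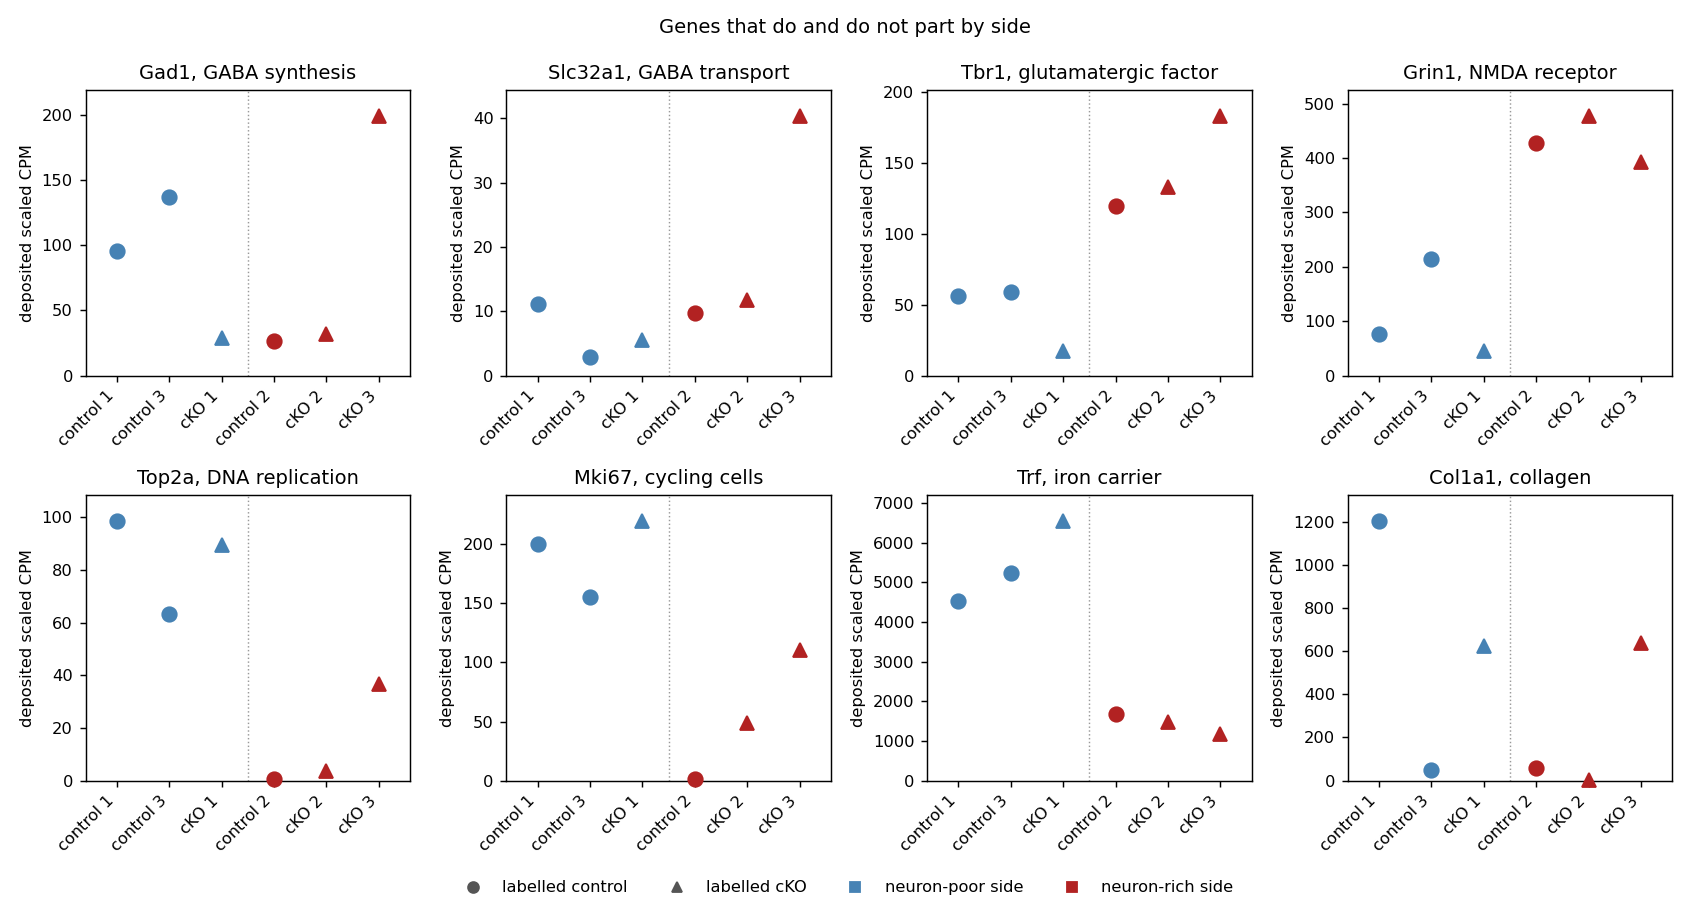
Levels of 8 genes (vertical axes, deposited scaled CPM from 0) with 1 point per library; circles are labelled control, triangles labelled cKO, blue is neuron-poor and red neuron-rich. Tbr1, Grin1, Top2a, Mki67 and Trf part without overlap, whereas Gad1, Slc32a1 and Col1a1 do not, with cKO 3 apart from the other neuron-rich libraries in Gad1, Slc32a1 and Col1a1.

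Cortical layer genes parted in some members only. Of 24 passing the filter, 16 were positive and 5 counted as higher, with a median of 0.41. Without cKO 2, 9 counted as higher, and without both libraries numbered 2 the median was 1.22. Cux2, a factor of upper-layer neurons, stood at 51.0, 146 and 48.0 against 207, 251 and 191, and Bcl11a, a zinc finger factor of projection neurons, at 32.8, 54.2 and 26.1 against 95.3, 118 and 137. Sulf1, which edits heparan sulfate outside the cell, went the other way at 109, 32.2 and 84.0 against 9.86, 10.7 and 39.8 and overlapped. Of 22 neuropeptide genes 19 were positive and 4 counted as higher (median 0.74). They were Resp18, Pcsk1n, the prohormone convertase Pcsk2 and cholecystokinin (Cck), the last at 60.9, 63.6 and 31.8 against 87.8, 83.5 and 214. The neuropeptide count was 8 without control 3, 8 without cKO 2 and 2 without cKO 3. Without both libraries numbered 2 the neuropeptide median was 1.40.

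The neurofilament subunits Nefl, Nefm and Nefh, which fill large axons, led the axon and cytoskeleton list, with differences of 1.62, 1.87 and 2.08. Nefl stood at 44.5, 58.7 and 27.9 against 127, 140 and 124. The list as a whole was mixed, with 25 of 35 genes positive, 5 counted as higher and 2 as lower (median 0.50), and 8 and 11 counted as higher without control 2 and without control 3. Immediate early genes, which neurons and other cells switch on quickly after stimulation, were mixed too. Of 28, 11 were positive, 1 counted as higher and 3 as lower. Egr4 was the one counted as higher, at 6.91, 12.7 and 5.85 against 24.1, 50.5 and 23.5. Maff, at 15.9, 28.6 and 18.3 against 7.28, 7.27 and 4.00, and Fosl2, at 86.2, 69.3 and 91.1 against 26.4, 24.4 and 48.9, lay below. Without control 2, 6 counted as lower, beside 1346 of all genes. Without control 3, 5 counted as lower and 4 as higher, beside 1539 and 1357 of all genes.

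Cell division genes were lower on the neuron-rich side as a broad group. Of 37 cell cycle genes, 34 were negative, 14 counted as lower and 0 as higher, with a median of -1.29. Without cKO 3, 27 counted as lower, and without both libraries numbered 2 the median was -0.37. Top2a, the topoisomerase that untangles replicated DNA, stood at 98.5, 63.4 and 89.5 in control 1, control 3 and cKO 1 and at 0.441, 3.64 and 36.6 in control 2, cKO 2 and cKO 3, a difference of -3.72 and the largest among the named genes. Mki67, which coats chromosomes in dividing cells, stood at 201, 156 and 220 against 1.47, 48.4 and 110. Ccnb1, the cyclin that starts mitosis, stood at 20.5, 17.6 and 21.6 against 0.147, 0 and 10.7. In each of these 3 genes the libraries did not overlap, yet cKO 3 lay much nearer to the neuron-poor libraries than control 2 and cKO 2 did.

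Many promoters of cell division genes carry CCAAT boxes and a cell cycle homology region (CHR), through which repressor and activator complexes time their transcription. The 250 bases upstream of the annotated start of Top2a (chr11:99024190-99024439) and Mki67 (chr7:135716380-135716629) are shown because both are leading genes of the lower direction and textbook markers of dividing cells, with Ccnb1 (chr13:100786487-100786736) from the same direction and Grin1 (chr2:25319188-25319437) from the other. All 4 lie on the minus strand of GRCm38.p6 and are printed 5′ to 3′ in the gene's sense from RefSeq. Capitals mark CCAAT and TTTGAA, the CHR core searched for here, on either strand. No other form was searched, so 0 matches does not mean that a CHR is absent.
Top2a: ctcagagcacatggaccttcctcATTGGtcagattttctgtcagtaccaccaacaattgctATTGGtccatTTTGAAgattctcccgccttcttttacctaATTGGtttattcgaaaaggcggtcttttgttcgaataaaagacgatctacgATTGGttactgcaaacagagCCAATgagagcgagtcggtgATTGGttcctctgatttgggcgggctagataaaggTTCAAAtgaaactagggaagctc
Mki67: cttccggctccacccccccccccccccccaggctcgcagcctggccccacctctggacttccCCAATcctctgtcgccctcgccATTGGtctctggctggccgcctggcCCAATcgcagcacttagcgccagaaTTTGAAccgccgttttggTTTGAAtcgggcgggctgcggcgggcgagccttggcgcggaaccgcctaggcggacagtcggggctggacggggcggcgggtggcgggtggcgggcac
Ccnb1: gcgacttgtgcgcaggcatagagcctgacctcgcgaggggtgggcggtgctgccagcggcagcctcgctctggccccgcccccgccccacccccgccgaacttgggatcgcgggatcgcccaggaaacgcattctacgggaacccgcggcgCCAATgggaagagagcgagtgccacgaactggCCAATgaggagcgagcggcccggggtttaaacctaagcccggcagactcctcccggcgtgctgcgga
Grin1: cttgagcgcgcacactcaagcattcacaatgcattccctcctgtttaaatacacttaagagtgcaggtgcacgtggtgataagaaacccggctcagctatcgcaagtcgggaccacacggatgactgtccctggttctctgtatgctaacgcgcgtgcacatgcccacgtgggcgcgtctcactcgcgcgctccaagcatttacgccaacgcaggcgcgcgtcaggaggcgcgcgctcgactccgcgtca
The Top2a sequence holds 6 CCAAT and 2 CHR matches, that of Mki67 3 and 2, that of Ccnb1 2 and 0, and that of Grin1 0 and 0. The first pair holds the most matches of the upstream sequences examined. Cenpf had 2 CCAAT and 0 CHR matches and Kif11 1 and 1, and in the other direction 1 of 2 Slc30a3 sequences had 1 CCAAT match while Kcnj4 and Cplx1 had 0 of either. In windows of 250 bases before to 50 after each start, 29 of the 37 cell cycle genes had 32 promoters. CCAAT was found in 71.9% of them and TTTGAA in 34.4%, against 37.4% and 17.9% of all 32851 promoters in the table. In 45 promoters of 22 pan-neuronal genes the shares were 42.2% and 15.6%, and in 71 of 60 ribosomal protein genes 31.0% and 5.63%. A match is a stretch of letters and no measured binding.

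Several other leading genes of the lower direction act in cell division. Casc5 and Knstrn of the kinetochore, Cenpf and the motors Kif18a and Kif11 act in mitosis, as does separase (Espl1). The helicase subunit Mcm3 and the checkpoint protein Clspn act in replication. The cyclin-dependent kinase inhibitor Cdkn2c and the transcription factor Foxm1 regulate the cell cycle. Casc5 was at 0 in control 2 and cKO 2, at 13.9 in cKO 3 and at 26.1 to 35.4 on the neuron-poor side. Some of the others have different roles. Col4a5, a collagen chain of basement membranes, stood at 36.4, 10.9 and 33.7 against 0.515, 0 and 7.87. Tgfbr1, a receptor of TGF-beta, stood at 71.0, 83.6 and 73.9 against 9.34, 0.909 and 30.4, and the growth factor gene Gdnf at 15.7, 45.7 and 18.8 against 1.77, 0.303 and 6.82. Mlkl, the executor of necroptosis, was between 8.50 and 12.1 on the neuron-poor side and stood at 0.736, 0 and 1.09 in control 2, cKO 2 and cKO 3, with all 3 low. Gpr82, Tfap2a, Cacng5, Fam107b, Mtbp, Fam46a, Tnfaip3 and Mmp13 complete the leading genes.

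The 2 libraries numbered 2 carried much of the lower direction. Of the 877 genes counted as lower, the lowest library was cKO 2 in 504, control 2 in 284 and cKO 3 in 89. At 0 were 242 of these genes in cKO 2, 135 in control 2 and 1 in cKO 3. Without both libraries numbered 2, the cell cycle median was -0.37, against -1.29 with them, and without cKO 3 it was -1.88. The 836 genes counted as higher were spread more evenly, with the highest library cKO 2 in 397, cKO 3 in 281 and control 2 in 158. Here a single neuron-poor library was lowest most often, cKO 1 in 587. Each gene counted in either direction already has cKO 3 beyond all 3 neuron-poor libraries. With cKO 3 as the sole neuron-rich library these genes cannot overlap, so a recount of them there is no check of the calls.

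Cytosolic ribosomal protein genes were lower as a group, with 79 of 81 negative, 18 counted as lower, 0 as higher and a median of -0.80. Rpl36a, of the large subunit, was between 56.0 and 72.9 on the neuron-poor side and stood at 40.5 in control 2 and 2.22 in cKO 2, with cKO 3 also below the neuron-poor side and a difference of -1.75. Rps27a, which encodes ubiquitin fused to a ribosomal protein, overlapped, at 117, 121 and 74.6 against 21.0, 6.57 and 99.9. Again cKO 3 was closest to the neuron-poor side. The count of 18 rested on single libraries: it was 3 without cKO 2 and 48 without cKO 3. Without both libraries numbered 2 the median was -0.18. Ribosomal protein genes have many near-identical pseudogenes, and the sources used here do not say how reads with several matches were counted.

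Ribosomal protein genes are short, with a median span of 3.24 kb, whereas ion channel genes in the list span a median of 173 kb. The span is the distance from the start to the end of a gene in the annotation. Over all compared genes with a length, the median span was 24.7 kb, against 28.5 kb for the genes counted as higher and 23.8 kb for those counted as lower. With the genes ranked by span and cut into 5 equal groups, 8.07% of the longest group counted as higher, against 4.75% to 5.33% in the other 4. For the lower direction the share was 5.30% to 6.49% over the 5 groups, with no such step. The part of gene length in the list differences was not tested.

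Oligodendrocyte genes were lower on the neuron-rich side in 27 of 29 members, with 10 counted as lower, 0 as higher and a median of -0.81. Trf, the iron carrier transferrin, stood at 4539, 5225 and 6546 against 1670, 1489 and 1182 (difference -1.91), Ermn, a cytoskeletal protein of myelinating cells, at 913, 697 and 900 against 272, 242 and 195 (difference -1.82), and Gjb1, a connexin of myelin, at 129, 233 and 148 against 98.7, 13.5 and 43.8. Mbp, myelin basic protein, chosen after its values were seen, overlapped at 2471, 2015 and 3708 against 4456, 3746 and 1307, so the list did not move as a block. The list was lowest in cKO 3, where the pan-neuronal list was highest. Without both libraries numbered 2 the median was -1.27. Oligodendrocyte precursor genes had smaller differences: 19 of 21 were negative and the median was -0.30. The 1 counted as lower is near the share of 5.93% over all genes, so nothing is read from that count. Pdgfra, the receptor that marks precursors, stood at 532, 693 and 579 against 412, 362 and 375.

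Mural cell and fibroblast genes had a low median of -1.20, with 25 of 28 negative, but 3 counted as lower and the libraries cut across the sides. Their summed level was 8334, 1251 and 5220 in control 1, control 3 and cKO 1 and 885, 753 and 5050 in control 2, cKO 2 and cKO 3. Col1a1, a chain of fibrillar collagen, stood at 1205, 48.9 and 624 against 60.0, 3.54 and 641, so cKO 3 was high with cKO 1 and control 1, and control 3 low with control 2 and cKO 2. Without both libraries numbered 2 the list median was 0.11, and 13 and 8 genes counted as lower without control 3 and without cKO 3. Endothelial genes were negative in 20 of 24, with 2 counted as lower and a median of -0.29. Of these, Itm2a stood at 38.3, 18.8 and 32.6 against 16.9, 0 and 11.9. The endothelial count was 0 without cKO 2 and 5 without cKO 3, where 849 and 2113 of all genes counted as lower.

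Astrocyte genes did not follow the sides, with 17 of 28 positive, 1 counted as higher and a median of 0.06. The median was -0.05 without control 3 and -0.13 without cKO 2, and without both libraries numbered 2 it was -0.35. The count of genes higher was 5 without cKO 3, 3 without cKO 1 and 2 without control 3. The gene counted as higher was Aldh1l1, a folate enzyme used as an astrocyte marker, at 5.25, 5.33 and 4.61 against 16.5, 30.4 and 6.57. Vim, an intermediate filament of reactive astrocytes and many other cells, stood at 857, 517 and 550 against 180, 175 and 759. Microglial genes were scarce: 15 of 26 in the table passed the filter, and the list summed to 62.6 to 125 in the 6 libraries. Csf1r, the receptor on which microglia depend, was between 4.50 and 23.1 in each library. The neutrophil, T and B lymphocyte and red cell lists had 2, 1 and 1 genes passing the filter. Of these, Lcn2 of the neutrophil list, chosen after its values were seen, counted as higher, and it had passed through the neuron-rich side alone, at 15.7 in cKO 2 and at most 1.77 elsewhere. In the ependymal and choroid plexus list 5 genes passed and 0 counted in either direction.

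Genes of the injury response were lower on the neuron-rich side in several lists, which share members. Hspb1 stands in the injury and heat shock lists, and Cryab, counted as lower, in the heat shock and oligodendrocyte lists. Of 21 injury and regeneration genes that passed the filter, 17 were negative and 3 counted as lower (median -0.67). They included Gadd45a, a DNA damage response gene, at 22.5, 24.6 and 20.5 against 10.7, 1.41 and 6.52. Of 41 genes of the integrated stress and unfolded protein responses, 34 were negative and 6 counted as lower (median -0.59). Ddit3, the stress transcription factor CHOP, stood at 18.3, 52.8 and 27.0 against 6.40, 4.34 and 14.3. Of 25 heat shock genes, 22 were negative and 3 counted as lower (median -0.55), among them the co-chaperone Bag3 at 43.1, 74.9 and 31.9 against 11.3, 14.6 and 27.9. These 3 medians were -0.48, -0.24 and -0.05 without both libraries numbered 2. Without cKO 3, 6, 13 and 8 genes counted as lower. The stress response count was 10 without control 3 and 3 without cKO 2, and the heat shock count 5 without cKO 1 and 2 without cKO 2.

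Interferon-stimulated genes, which interferon switches on in antiviral defense, were negative in 36 of 41 members passing the filter, with 6 counted as lower and a median of -0.91. Of the 41 genes, 2 were under 1 in all 3 neuron-rich libraries and passed through the neuron-poor libraries alone, so the count is not support. It was 19 without control 2 and 11 without cKO 1. The libraries of the neuron-rich side were far apart here. The mean log2 level of the list was 3.82, 3.73 and 3.23 in control 1, control 3 and cKO 1, and 3.68, 1.88 and 2.52 in control 2, cKO 2 and cKO 3. Control 2 thus lay among the neuron-poor libraries, and the libraries labelled cKO were the lowest 3. Ddx60, an antiviral helicase-like protein, showed it at 27.5, 29.0 and 17.8 against 39.2, 0 and 5.30. Trim25, a ubiquitin ligase of the RIG-I pathway, did part by side, at 37.4, 31.6 and 39.8 against 30.4, 1.01 and 15.4.

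The comparison by label, cKO minus control, was not used to form the sides and is the one contrast here that was tested. The question it addresses is which transcripts differ after stroke when neuronal Cre is added to floxed Padi4 alleles. In limma with Benjamini-Hochberg adjustment, 0 of 14796 genes were called (0%), with 50 higher and 76 lower at an unadjusted p under 0.05. With the side as a further term the count was again 0 (0%), with 138 higher and 98 lower unadjusted. The smallest adjusted p was 0.9996 without the term and 0.9999 with it. edgeR on the recovered reads called 0 genes (41 higher and 32 lower unadjusted), while the 1 gene called by DESeq2 was Ifit3 (adjusted p = 0.0121, with 97 higher and 78 lower unadjusted).

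The side term was built from neuronal transcript levels, so lists that differ between the sides move with it by construction, and how far neuronal lists moved is not read. Their medians with the term were between -0.26 and -0.01, and those of the cortical layer, GABAergic and neuropeptide lists were below 0 in each fit. Among other lists, the cell cycle median under the cKO label went from -0.24 to 0.36, the mural cell and fibroblast median from -0.03 to 0.48 and the ribosomal protein median from -0.18 to 0.09. In the fits with and without the term 0 genes of these lists were called. Over all genes the median was -0.02 in each fit.

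The interferon-stimulated list kept its direction. In the libraries labelled cKO, 39 of 41 genes were lower without the side term (median -1.11) and 35 of 41 with it (median -0.87), and 0 were called in either fit. Ifit3, an interferon-induced antiviral protein, stood at 28.2, 32.2 and 47.3 in the libraries labelled control 1, control 3 and control 2, and at 8.01, 6.36 and 5.05 in those labelled cKO 1, cKO 2 and cKO 3. Its log2 difference was -2.29 (SE 0.48) without and -2.32 (SE 0.52) with the side term, with limma adjusted p of 0.9996 and 0.9999. Ifit1, of the same family, stood at 31.4, 38.3 and 30.8 against 10.3, 8.08 and 11.3, and its difference was -1.67 (SE 0.43) and -1.62 (SE 0.47). Both genes were lower in the library labelled cKO on the neuron-poor side and in the 2 on the neuron-rich side, with no overlap between labels. Ddx58, the RNA sensor RIG-I, moved more with the term, from -2.02 (SE 0.68) to -1.62 (SE 0.62). Whether the label difference itself differs between sides was not tested.

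**Figure D5:**
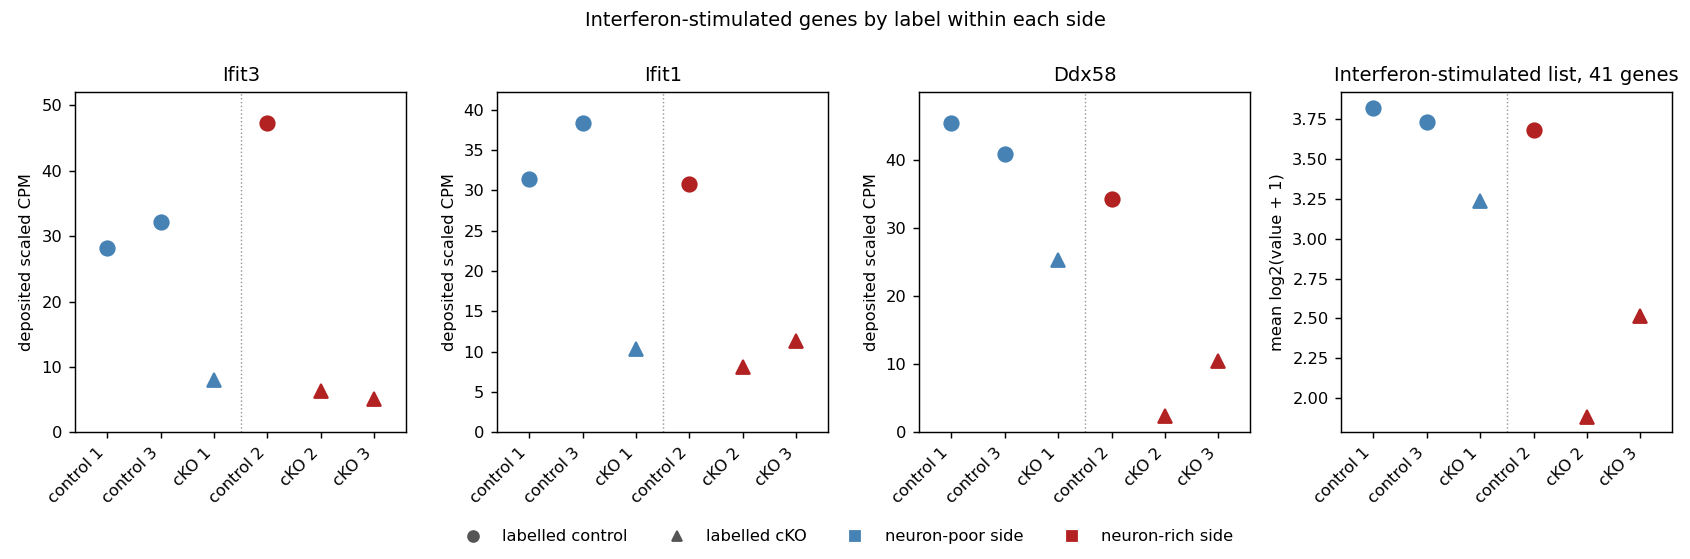
Levels of Ifit3, Ifit1 and Ddx58 (vertical axes, deposited scaled CPM from 0) and the mean log2(value + 1) of 41 interferon-stimulated genes (axis not from 0), with 1 point per library; circles are labelled control, triangles labelled cKO, blue is neuron-poor and red neuron-rich. In each panel the triangles lie below the circles on either side of the dotted line.

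Other genes with the smallest p in the fit with the side term went in both directions, with limma adjusted p of 0.9999 each. Scg2, a granin of dense-core vesicles, stood at 60.7, 64.4 and 186 in the libraries labelled control 1, control 3 and control 2, and at 25.8, 46.3 and 97.4 in those labelled cKO 1, cKO 2 and cKO 3. Its difference went from -0.87 (SE 0.55) to -1.35 (SE 0.36) with the term, and within each side its level was lower under the cKO label. Ddn, dendrin of the postsynaptic density, stood at 40.7, 40.6 and 50.2 against 56.2, 181 and 140, with differences of 1.35 (SE 0.43) and 1.05 (SE 0.35). Mki67 went from 1.32 (SE 1.37) to 2.61 (SE 0.79), with control 2 at 1.47 against 48.4 and 110 in cKO 2 and cKO 3. Dlk1 and Gna14 were lower and Spag7, AA388235 and Vtn higher, and for Dlk1 and Gna14 the level of control 2 was far above that of the other 2 libraries labelled control.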

How the data were processed

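Per the submitters' processing notes, the tools were Trimmomatic, HISAT2, featureCounts and edgeR (no versions) on mm10. The strand setting and counting annotation are not given in the sources, so overlapping and antisense genes carry that uncertainty. The deposited signal of each library is CPM, scaled again by the authors, and totals ran from 961962 to 1027958. Plain CPM had been assumed, and the test fits either form. Division by the smallest step of each library gave whole reads (tolerance 0.001) for 100% of the values.

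The members and lists were chosen with earlier results of these data known. From the signal, side differences were computed as differences of mean log2(level + 1) for genes with a level of at least 1 in at least 3 libraries. Labels were compared with limma 3.58.1 (trend on mean expression, R 4.3.3), and with edgeR 4.0.16 and DESeq2 1.42.0 on recovered reads, with a threshold of 0.05 on adjusted p. The procedure was tested on simulated data, and nothing about these libraries is concluded from that. Precision is limited by 3 libraries per side and by depths of 10094145 to 24056755 reads, where 3 reads are 0.126 to 0.303 level units.

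Named are the markers, the sort, driver and target genes, 25 genes per direction with the largest non-overlapping difference and a mean of at least 5, without predicted genes, up to 4 genes per list by absolute difference at that mean, 5 per direction by p with the side term, and 6 interferon genes. Some genes that this rule names are not reported here. Of 32 lists, those on metabolism and protein turnover stand in the closing section. Coordinates come from GENCODE vM21 (mm10) and promoters from RefSeq (GRCm38.p6). Alternatives were pseudocounts of 0.1 and 5, filters, other scalings, a minimum difference of 2, a pan-neuronal term, a replicate block and leaving out libraries. One more, without control 2 and cKO 2, was added after seeing the data.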

Additional observations from a re-analysis of the deposited data

How the results depend on the processing

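Counts of genes by side moved with the settings as follows. With a pseudocount of 5, 577 genes were higher, against 836, and 435 lower, against 877. With the filter at 5, 730 were higher and 640 lower, and with a minimum difference of 2, 57 were higher and 139 lower. Leaving out 1 library at a time gave 733 to 1357 genes higher and 849 to 2113 lower, the ends being without cKO 1 and without control 3 for the first and without cKO 2 and without cKO 3 for the second. Leaving out both libraries numbered 2 gave 1455 higher and 1058 lower. Fewer libraries make non-overlap easier to reach, so these counts can rise by construction. The mural cell and fibroblast median turned from -1.20 to 0.11 without both libraries numbered 2, and the median of the T and B lymphocyte list, 1 gene, from 1.26 to -0.032 over the genes added without a filter. Median-of-ratios, quantile and TMM scaling left the direction of the neuronal, cell cycle, ribosomal, oligodendrocyte and interferon medians as reported. In the comparison by label, the limma and edgeR alternatives gave 0 calls, with a smallest adjusted p of 0.606 (without cKO 1) to 0.9999, and DESeq2 gave 1 call. Deviations of same-numbered libraries correlated at 0.491, 0.301 and 0.034, and each library labelled control correlated most with its own number. The labels give numbers only, so the main fit took no pairs, and whether same-numbered libraries were prepared together was not tested. Both libraries numbered 1 are neuron-poor and both numbered 2 neuron-rich, so for them a shared preparation cannot be told apart from the side. The fit with the replicate block called 0 genes (110 higher and 197 lower unadjusted). The libraries at 0 for many genes bound what can be said of low genes, at 3 reads or 0.126 to 0.303 level units.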

Other observations

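Lists on metabolism and protein turnover were not described above. In the cholesterol synthesis list 19 of 25 genes were negative, 5 counted as lower (2 without control 3) and 0 as higher (median -0.38). Idi1, an isomerase of the pathway, stood at 40.8, 62.8 and 48.5 in control 1, control 3 and cKO 1 and at 1.69, 22.5 and 11.7 in control 2, cKO 2 and cKO 3, and Sqle, squalene epoxidase, at 71.3, 132 and 76.5 against 31.2, 48.2 and 38.1. In the glycolysis and hypoxia list 17 of 30 were positive, 3 counted as higher and 2 as lower. Eno2, one of those counted as higher, is also in the pan-neuronal list, and the sides were formed on levels of such genes. Pfkm, the muscle-type phosphofructokinase, stood at 59.5, 66.5 and 37.1 against 90.0, 190 and 160, whereas Ndrg1, a hypoxia-responsive gene also abundant in oligodendrocytes, stood at 414, 561 and 403 against 309, 151 and 139.

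Nuclear-encoded oxidative phosphorylation genes were near balance, with 33 of 75 positive, 2 counted as higher, 1 as lower and a median of -0.11, which was 0.51 with cKO 3 as the sole neuron-rich library. Ndufb11, a subunit of complex I, was the one counted as lower, at 32.4, 43.6 and 32.0 against 2.13, 2.93 and 27.5. Lysosome genes had 2 of 32 counted in each direction, near the shares of 5.65% higher and 5.93% lower over all genes, so nothing is read from the list. Gaa, the acid glucosidase, stood at 69.7, 105 and 66.9 against 211, 136 and 217, and Npc2, which carries cholesterol out of lysosomes, at 64.6, 78.6 and 62.1 against 36.4, 21.0 and 34.4. Of 36 proteasome genes 26 were negative, and the median of -0.39 was 0.11 without both libraries numbered 2. Psmb8, an immunoproteasome subunit that interferon induces, was the 1 counted as lower and is named after its values were seen, but it was under 1 in all 3 neuron-rich libraries and passed the filter through the neuron-poor side alone. With the filter at 5 the count was 0, and without cKO 3 it was 8, beside 2113 of all genes. In the nuclear long noncoding RNA list, 8 of 17 genes were positive and 9 negative, with 1 counted as higher and 2 as lower (median -0.20). Its summed level was 31923, 35648 and 44639 against 43580, 61356 and 15678, so cKO 3 lay far below control 2 and cKO 2. Pvt1 stood at 32.3, 32.5 and 48.0 against 10.7, 9.90 and 11.2 without overlap. Miat overlapped at 62.3, 207 and 57.6 against 319, 501 and 171.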
